A study of Mus musculus with 44 samples.

Results

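GABA-A receptors are the chloride channels that mediate most fast inhibition in the brain. Each receptor is a ring of subunits, usually alpha and beta subunits with a gamma or a delta subunit. The alpha subunit shapes GABA affinity, drug response and placement, the beta subunit takes part in the GABA site and in assembly, and the delta subunit replaces gamma in receptors outside synapses that carry tonic currents. Subunit use is known to shift during brain development. The genes described here are 7 subunit genes, Gabra2, Gabra3, Gabra4, Gabra5, Gabrb1, Gabrb2 and Gabrd, taken from every library by their RefSeq identifiers, out of 17158 gene identifiers in all.

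Libraries of mRNA (RNA-seq), of ribosome-protected fragments (RPFs, the mRNA pieces covered by translating ribosomes) and of poly(A) tails were made from C57BL/6J mouse brain tissue and cultured neurons, 44 in all. Tissue came from embryonic hippocampus (embryonic day 16), and from the hippocampus and the cortex of adult males. Cultures were cortical neurons of pups of postnatal day 0 to 1, all grown with cytosine arabinoside against dividing cells. They were harvested after 10 days in vitro (DIV10), untreated or after KCl for 10 or 30 min, or after 14 days (DIV14), untreated or after 30 min of brain-derived neurotrophic factor (BDNF) or of glutamate with glycine (glu/gly). Other cultures were transduced at DIV5 with lentivirus that expressed GFP alone, or GFP carrying miR-1 or miR-155 in its 3′ UTR, from a synapsin promoter, and were harvested at DIV14. Visual cortex came from 8 mice aged 6 to 7 weeks and kept in the dark for 1 week, of which 4 then had 1 h of light. Visual cortex alone had replicates (4 mice a group), measured by PAL-seq v2, which reads the mRNA 3′ end and its tail. Every other condition had 1 library per assay, so those differences have no replicate check, and the intervals given with them are 95% Clopper-Pearson intervals for counting error only.

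Reads on genes numbered 448022 to 7689624 in RNA-seq and 817114 to 23212489 in RPF libraries. Tags numbered 389654 to 1057812 in TAIL-seq libraries, which measured the tails of the cultures and the adult cortex, and 86841 to 4812273 in PAL-seq libraries of the hippocampi and the visual cortex. The RNA of both hippocampi was poly(A)-selected. That of the adult cortex and of primary cortical cultures was depleted of ribosomal RNA, but the paper does not name there which cultures these were. Tissue and RNA preparation thus cannot be told apart where the hippocampus is compared with the cortex. In bulk samples, fewer cells of a type and less RNA per cell cannot be told apart either. Levels are given as CPM, the share of a gene in all reads or tags on genes of its library, scaled to the usual fixed total. A ratio of 2 or more either way, in genes with at least 10 RPM in 1 of the 2 libraries, served as the mark of a difference between single libraries. RPM is the deposited value, scaled on a total larger than the reads listed for genes.

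The 7 genes lie on chromosomes 4 (Gabrd), 5 (Gabra2, Gabra4 and Gabrb1), 7 (Gabra5), 11 (Gabrb2) and X (Gabra3) of mm10. Gabra2 spans chr5:70958392-71095849 and Gabra4 spans chr5:71569734-71658308, both on the minus strand. The Gabrb1 transcript NM_008069 spans chr5:71699932-72149572 on the plus strand, and the Gabrb1 gene, which starts at position 71657921 with another transcript, overlaps the start of Gabra4. Their 3′ UTRs differed widely in length, from 422 nt in Gabrd to 12763 nt in Gabrb1, against a median of 924 nt over all genes, and only 7 genes had a longer one than Gabrb1. Because miR-155 was expressed in 1 culture, the 3′ UTRs were searched on the mRNA strand for AGCATTA, the match to bases 2 to 8 of the miRNA (its seed). This heptamer was in 7.95% of the 16894 3′ UTRs searched. Gabra4 alone of the 7 genes held it, at 2 places. Among 3′ UTRs of like length, 11.7% held at least 1 copy. The RefSeq sequences are shown because the miR-155 comparison turns on them, with the seed and its matches in capitals. The first site lies in chr5:71571439-71571468 and the second in chr5:71570627-71570656, both in the Gabra4 3′ UTR on the minus strand.
mmu-miR-155-5p: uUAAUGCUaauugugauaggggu
Gabra4 site 1: atagaacacagAGCATTAtggaaagttgga
Gabra4 site 2: gtaggtgaaaaAGCATTAtagacctgaaac

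In the hippocampus, RNA of 6 of the 7 subunit genes was at least 2-fold higher in the adult than in the embryo, and ribosome footprints did not follow in the same way. Over all 8367 genes compared, 47.3% were past 2-fold in either direction and 19.7% were past it upwards. Footprints of Gabra3 and Gabra4 were lower in the adult although their RNA was higher. Those of Gabra5, Gabrb1, Gabrb2 and Gabrd were 7.18 to 44.4-fold higher. For footprints, 59.4% of all genes were past 2-fold either way. The 2 hippocampal footprint libraries listed 11880 genes (embryo) and 12653 genes (adult) from 23212489 and 21658829 reads on genes. The adult cortex footprint library listed more, 14957 genes, from fewer reads, 7498926. The counting intervals take the reads as independent, which was not tested, so they can be too narrow for these footprints.

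Gabra2 encodes the alpha2 subunit, found in many receptors of young neurons. Its RNA level was 33.3 CPM in the embryo and 54.7 in the adult, a 1.64-fold difference (1.40 to 1.93). Its footprint level was 87.1 in the embryo and 68.9 in the adult, or 0.791-fold (0.739 to 0.846). Gabra2 had the highest level per kilobase of the 7 in the embryo, by RNA (25.5 CPM per kilobase) and by footprints (66.7).

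Gabra3, the alpha3 subunit gene, had 12.9 CPM in RNA in the embryo and 49.9 in the adult, 3.87-fold more (3.09 to 4.89). Its footprint level went the other way, from 36.4 to 21.5 CPM, 0.590-fold (0.526 to 0.662). Gabra4, whose alpha4 subunit is a common partner of delta outside synapses, showed the same opposition. Its RNA was 23.0 CPM in the embryo and 61.0 in the adult (2.65-fold, 2.22 to 3.17). Its footprints were 36.1 and 14.8 CPM (0.409-fold, 0.358 to 0.465). Of the 1646 genes with RNA at least 2-fold higher in the adult, 72 (4.37%) had a lower footprint CPM, and Gabra3 and Gabra4 were among them.

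Gabra5 encodes the alpha5 subunit, which is enriched in the hippocampus. Its RNA was 18.2 CPM in the embryo and 204 in the adult (11.2-fold, 9.43 to 13.4), and its footprints were 3.06 and 85.0 (27.8-fold, 21.9 to 35.7). In the adult hippocampus it had the highest RNA level per kilobase of the 7, with 37.6% of their sum, but only 16.9% of the footprint sum.

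Both beta subunit genes were far higher in the adult. Gabrb1 had 15.9 and 83.0 CPM in RNA (5.23-fold, 4.30 to 6.41) and 3.14 and 140 CPM in footprints (44.4-fold, 35.2 to 56.8). Gabrb2 had 6.24 and 75.7 CPM in RNA (12.1-fold, 9.02 to 16.6) and 17.7 and 137 CPM in footprints (7.72-fold, 6.96 to 8.58). Gabrb1 thus differed more in footprints than in RNA, and Gabrb2 less.

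Gabrd, the delta subunit gene, had the widest RNA ratio of the 7, but it rested on 4 reads in the embryo against 215 in the adult (56.8-fold, 21.9 to 210). Its footprint counts of 138 and 924 gave 5.95 and 42.7 CPM, 7.18-fold (5.99 to 8.65).

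**Figure D1:**
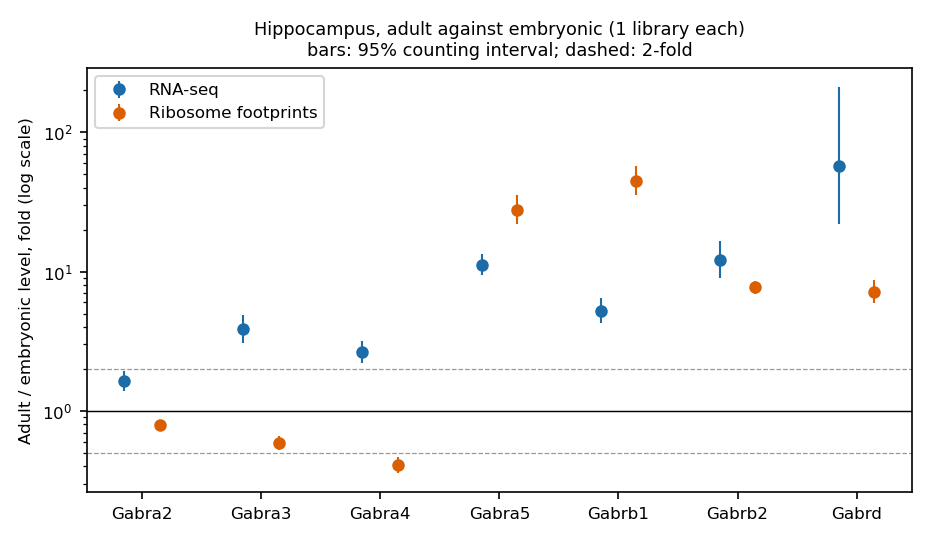
Ratio of the adult to the embryonic hippocampus (log axis, fold) for each gene, RNA-seq in blue and ribosome footprints in orange, with 95% counting intervals and dashed lines at 2-fold. The footprint ratios of Gabra2, Gabra3 and Gabra4 lie below 1 (0.791, 0.590 and 0.409) where their RNA ratios lie above it.

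Translational efficiency (TE), the log2 ratio of footprint RPM to RNA RPM, was compared after subtracting the median difference over genes. At 10 RPM or more in both libraries, Gabra2 and Gabra4 could be compared. The TE difference of Gabra4, adult minus embryo, was -2.63 on the log2 scale (SE 0.16, counting error), with 1.01% of genes lower still. That of Gabra2 was -0.99 (SE 0.13), just short of the 2-fold mark. Of all genes, 22.1% were past 2-fold in TE. With a cutoff of 1 RPM, added after the data were seen, 6 of the 7 could be compared and 5 were past 2-fold, against 36.3% of all genes. In that setting the TE difference was -2.68 for Gabra3, 1.34 for Gabra5, 3.12 for Gabrb1 and -0.61 for Gabrb2, the last of which is not past 2-fold. No subunit gene had 50 tail tags in both hippocampi, so none had a tail difference there. Of all genes, 10.1% differed by 20 nt or more.

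Lists of the wider GABA system differed in how many of their genes were past 2-fold upwards in the adult hippocampus, where 19.7% of all genes were. Of the genes for GABA synthesis, transport and breakdown, 7 of 7 compared were higher, among them Gad1, which makes GABA (17.4-fold), and Slc32a1, which loads it into vesicles (8.10-fold). Of the GABA-B receptor genes, 3 of 4 were higher, and of the scaffold, assembly and trafficking genes 5 of 16, with Nsf, an ATPase of membrane fusion, at 18.1-fold. The other 11 scaffold genes were not past the mark. Of the chloride transporter genes 1 of 5 was, a share close to that of all genes. This was Slc12a5, whose product KCC2 exports chloride (42.5-fold). Cell type markers moved between the same libraries. All 5 immature neuron markers and all 6 progenitor markers were at least 2-fold lower in the adult, and all 5 oligodendrocyte and all 6 astrocyte markers were higher. The summed level of the oligodendrocyte markers was 14.4 CPM in the embryo, with Mog at 0, and 1230 in the adult, and that of the interneuron markers was 121 and 927. Of 6 interneuron markers compared, 5 were at least 2-fold higher in the adult and 1 was lower. The excitatory neuron markers were mixed, with 2 higher and 3 lower of 5 compared. The part of this cell makeup in the subunit differences was not tested.

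**Figure D2:**
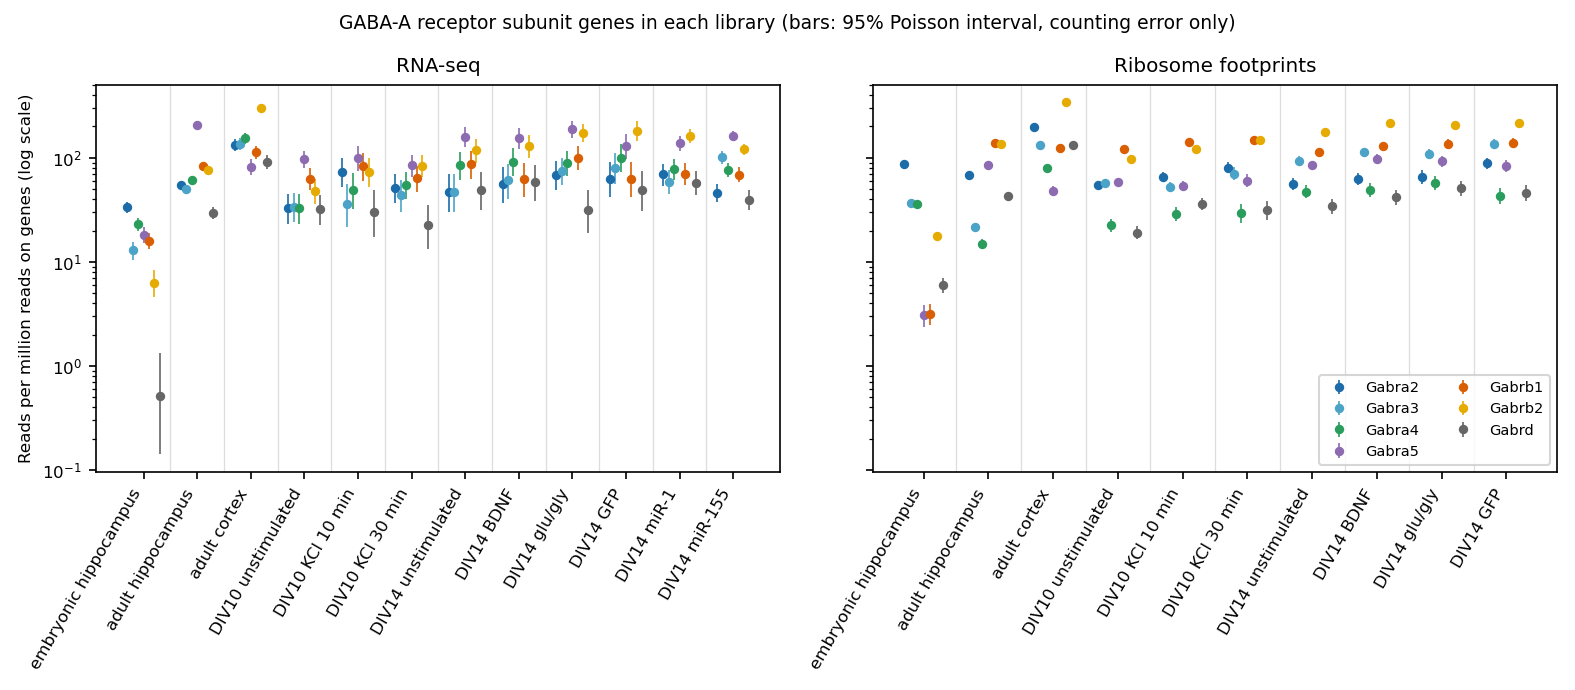
Level of each gene in each library (CPM, log axis) for RNA-seq on the left and ribosome footprints on the right, with 95% Poisson intervals for counting error. The embryonic hippocampus holds the lowest RNA level of every one of the 7 genes except Gabra2, whose lowest level, 32.7, was in DIV10 cultures.

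Adult cortex and adult hippocampus differed in their leading subunits. RNA was past 2-fold for 6 of the 7 genes, 5 higher and 1 lower in the cortex, against 17.5% of all genes, and footprints also exceeded 2-fold for 5 genes, against 22.4% of all genes. Gabrb2 had the largest RNA ratio, 301 CPM in the cortex and 75.7 in the hippocampus (3.98-fold, 3.52 to 4.5), and Gabrd followed with 91.3 and 29.5 (3.09-fold, 2.5 to 3.82). Gabra2, Gabra3 and Gabra4 were 2.44, 2.71 and 2.53-fold higher in RNA. Their footprints were 2.85, 6.13 and 5.35-fold higher. Gabra5 was the gene that was lower, at 81.9 against 204 CPM (0.401-fold, 0.335 to 0.477), with footprints at 0.565-fold. Gabrb1 was at 112 and 83.0 CPM, 1.35-fold (1.15 to 1.60). TE was higher in the cortex by 1.19 for Gabra3 and 1.10 for Gabra4 on the log2 scale, the 2 of 7 genes past 2-fold, against 13.0% of all genes. The cell markers differed as well: the summed dentate granule cell markers were 382 CPM in the hippocampus and 25.2 in the cortex. Their part in these differences was not tested.

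In adult cortex against untreated DIV14 cultures, RNA of Gabra2 (2.83-fold, 1.85 to 4.51), Gabra3 (2.87-fold, 1.88 to 4.56) and Gabrb2 (2.56-fold, 1.95 to 3.4) was past 2-fold, 3 of 7 genes against 37.5% of all genes. Scaling by trimmed means (TMM) moved all log2 ratios by 0.33 and put 5 of the 7 genes past the mark. The share of all genes after that scaling is not given here. Gabra5 was 159 CPM in the culture and 81.9 in the cortex, 0.514-fold (0.389 to 0.685). The 5 oligodendrocyte markers summed to 1600 CPM in the cortex and to 5.9 in the culture, where only 1 of the 5 was detected and Mag, Mbp and Mog were at 0. The immature neuron markers summed to 665 and 2300. The excitatory neuron markers summed to 2730 and 409, with 4 of 6 past 2-fold upwards in the cortex and 0 downwards. The part of this cell makeup in the subunit differences was not tested. The TE difference of Gabra3, cortex minus culture, was -1.20 on the log2 scale (SE 0.32), the 1 gene of 7 past 2-fold, against 18.2% of all genes. Of the 4 genes with 50 tail tags in both, the mean tail of Gabra5 was 88.8 nt in the cortex and 111 nt in the culture, a difference of -22.1 nt. It was the 1 past 20 nt, against 17.9% of all genes. The median gene differed by -12.4 nt, and relative to it no gene was past 20 nt.

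Between DIV10 and DIV14, untreated cultures differed past 2-fold in RNA for 2 of the 7 genes, against 7.10% of all genes. Gabra4 had 32.7 and 84.5 CPM (2.58-fold, 1.63 to 4.09), with footprints 2.10-fold higher (1.73 to 2.56). Gabrb2 had 47.9 and 118 (2.46-fold, 1.69 to 3.61), with footprints 1.80-fold higher (1.63 to 1.98). The other 5 lay between 1.37 and 1.65-fold. No gene was past the mark in TE (0 of 2 compared, 1.31% of all genes) or tail length (0 of 2, 4.43%).

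A single subunit gene passed the 2-fold mark in RNA after stimulation. After 10 min of KCl this was Gabra2, 1 of 5 genes compared, at 73.4 against 32.7 CPM (2.24-fold, 1.40 to 3.59), with 39 reads in each library. Its footprints were 1.20-fold (1.05 to 1.37), and 0.756% of all genes were past 2-fold in RNA. After 30 min of KCl no gene of 3 compared was past 2-fold (5.16% of all genes). BDNF left 0 of 7 past it (2.20%), with ratios from 0.723 to 1.28. Glu/gly also left 0 of 7 (4.21%), with ratios from 0.643 to 1.59. In TE 0 of 2, 0 of 1, 0 of 7 and 0 of 6 genes compared passed the mark, against 5.68%, 6.31%, 0.595% and 1.35% of all genes for KCl at 10 and 30 min, BDNF and glu/gly. In tail length it was 0 of 2, 0 of 2, 0 of 4 and 0 of 4 genes, in the same order, against 1.06%, 1.14%, 1.54% and 2.59%. With a minimum of 20 tags, Gabra3 also had a tail value for 30 min of KCl, 120 nt from 48 tags against 95.7 nt from 30 tags in the control, a difference of 23.8 nt that is past the 20 nt mark. With a TE cutoff of 1 RPM, added after the data were seen, Gabrd was past 2-fold upwards after KCl and glu/gly. Its log2 TE difference was 1.06 (0.17 to 1.95) and 1.22 (0.33 to 2.1) for KCl at 10 and 30 min. For glu/gly it was 1.21 (0.29 to 2.14), and for BDNF 0.06. In that order without BDNF, 96.0%, 96.7% and 96.6% of genes lay below Gabrd. Its RNA reads were 16, 18 and 19, against 38, 38 and 25 in the controls. The activity genes did differ: 4 of 4 compared were past 2-fold with BDNF and 4 of 4 with glu/gly, and 2 of 2 after 30 min of KCl. No activity gene could be compared after 10 min of KCl. The untransduced cultures had 16 to 115 RNA reads for each subunit gene, so small differences were not detectable at this depth.

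No subunit gene passed the marks in the transduced cultures. GFP virus against untreated DIV14 cultures gave 0 of 7 past 2-fold (3.52% of all genes), with ratios from 0.723 to 1.70. In TE 0 of 6 were past it (1.31%) and in tail length 0 of 3 (5.39%). miR-1 against GFP gave 0 of 7 in RNA (3.37%) and 0 of 3 in tail length (1.43%). miR-155 against GFP gave 0 of 6 in RNA (1.55%) and 0 of 3 in tail length (1.18%). Gabra4, the gene with the 2 seed matches shown above, had 100 CPM with GFP and 76.3 with miR-155, 0.759-fold (0.543 to 1.08). Gabrb2, without this heptamer, was also lower, at 181 and 121 CPM, 0.671-fold (0.520 to 0.872). Shorter matches to miR-155 and sites of miR-1 were not searched for. The interval of Gabra4 holds 1, so a difference was not detectable at this depth.

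Within each library, the 7 genes held different places in TE. Ranked among genes at 10 RPM or more, Gabrb1 had a higher TE than 68.0 to 93.7% of genes (8 libraries), Gabrb2 than 69.3 to 89.7% (8 libraries) and Gabra2 than 62.8 to 98.5% (8 libraries). Gabra5 was low, above 17.7 to 53.4% of genes in 9 libraries. Gabra4 ranged from 7.62% in the adult hippocampus to 83.6% in the embryonic one, and Gabra3 from 18.6% in the adult hippocampus to 92.5% in untreated DIV14 cultures. Gabrd lay between 49.4 and 81.1% in 4 libraries. Gabrb1 did not reach 10 RPM in the embryonic hippocampus, where among genes at 1 RPM or more it ranked above only 7.57% of genes, beside Gabra5 at 6.24%.

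**Figure D3:**
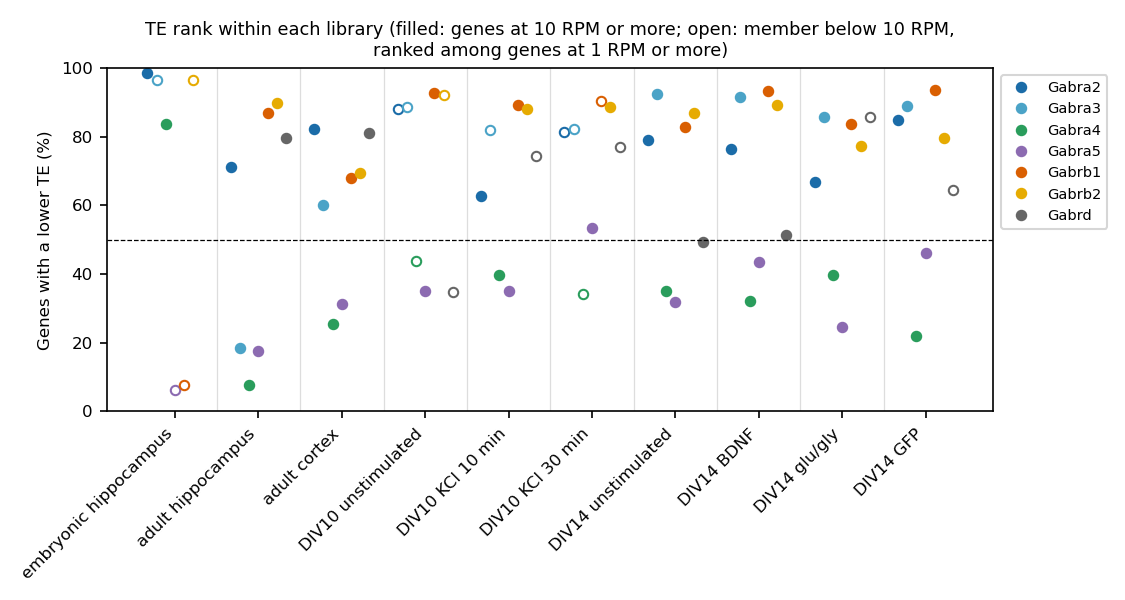
Share of genes (%) with a lower TE than each subunit gene in each condition, filled points ranked among genes at 10 RPM or more and open points, for genes under 10 RPM, among those at 1 RPM or more. The dashed line marks the median gene, and Gabrb2 lies above it in each of the 10 conditions while Gabra5 lies above it in 1, at 53.4%.

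Gabra2 and Gabrb1 gave almost no 3′-end tags. In the adult cortex their RNA levels were 102 and 81.7 CPM per kilobase, within the range of 61.0 to 219 of the other members. In the tissue and culture libraries where they had 10 RPM or more, Gabra2 had 0 to 3 tags and Gabrb1 0 to 4, or 0 to 0.0827 and 0 to 0.123 of the tags per RNA read density of the median gene. In visual cortex Gabra2 had 0 or 1 tag a mouse and Gabrb1 had 0 to 8. The other genes were at 0.326 to 4.71 of the median gene. AATAAA, the common poly(A) signal, was in the last 50 nt of the RefSeq 3′ UTR of both genes, on the mRNA strand, as in 65.2% of 16592 3′ UTRs. Why the tags are missing was not tested, and these genes have no tail length or light test.

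**Figure D4:**
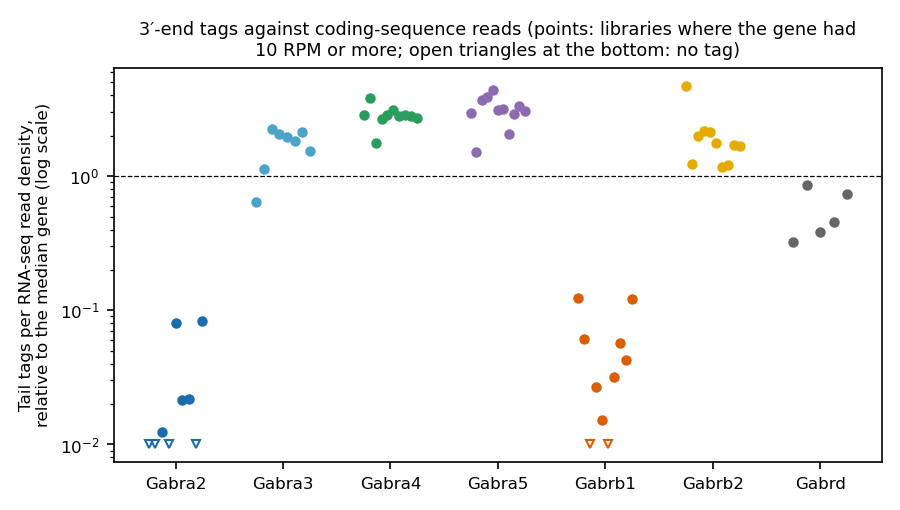
Tail tags per RNA-seq read density relative to the median gene (log axis), one point for each library where the gene had 10 RPM or more, with triangles for libraries with no tag. Gabra2 and Gabrb1 stay at or under 0.0827 and 0.123, and the others lie between 0.326 and 4.71.

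After 1 h of light none of the 5 subunit genes with enough tags was called in visual cortex. In tag abundance (edgeR's quasi-likelihood test, Benjamini-Hochberg adjusted), 0 of 5 were called, against 1.34% of 9554 genes. The lowest unadjusted p of the 5 was 0.366, and DESeq2 called none of them. All 6 activity markers rose in the same libraries, among them Fos, an immediate early gene, by 3.91 on the log2 scale (SE 0.42, edgeR adjusted p = 1.42e-06). Gabra3 had 113, 117, 138 and 145 CPM in the dark mice and 122, 98.3, 131 and 153 in the light mice, a log2 difference of 0.02 (95% interval -0.249 to 0.289, edgeR adjusted p = 0.986). Gabra4 had 168, 205, 191 and 188 in the dark and 152, 206, 203 and 183 in the light (0.01, -0.218 to 0.238, edgeR adjusted p = 0.992). The groups overlapped in both genes.

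Gabra5 varied most between mice, with 111, 125, 112 and 55.6 CPM in the dark and 101, 47.9, 53.6 and 145 in the light (log2 difference -0.23, -0.748 to 0.288, edgeR adjusted p = 0.853). It was 47.9 to 55.6 in 1 dark and 2 light mice and 101 to 145 in the others. Gabrb2 had 372, 336, 392 and 360 in the dark and 308, 315, 346 and 386 in the light (-0.08, -0.287 to 0.127, edgeR adjusted p = 0.884). Gabrd had 62.9, 75.2, 66.4 and 61.2 in the dark and 55.9, 82.4, 80.4 and 55.3 in the light (0.06, -0.251 to 0.371, edgeR adjusted p = 0.949). Light and dark mice overlapped in each of these 3 genes.

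Tail lengths of the 5 genes were not called either (limma, Benjamini-Hochberg adjusted), against 0.231% of 4321 genes. Gabra3 tails averaged 106, 107, 91.9 and 102 nt in the dark and 99.7, 100, 111 and 97.8 nt in the light. The differences, light minus dark, ran from -1.87 nt (Gabrd) to 5.43 nt (Gabra4), each with an SE of 6.68 nt and a limma adjusted p of 0.999. The 95% interval for Gabra4 was -7.66 to 18.5 nt. limma used a variance common to all genes here, so the SE and this interval do not measure the spread of each gene. The SD was 5.83 nt in the dark and 9.05 nt in the light for Gabra4. For Gabrd it was 11.1 and 5.07 nt. The median gene's tail differed between mice as well, from 77.5 to 97.5 nt.

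Tails did differ between the subunit genes within mice. Averaged over the 8 mice they were 102 nt for Gabra3, 95 nt for Gabra4, 92.0 nt for Gabrb2, 86.7 nt for Gabrd and 81.6 nt for Gabra5. This comparison of 10 pairs of genes was chosen after the values were seen. In an exact two-sided sign-flip permutation test over the 8 mice, 8 of 10 pairs differed at an adjusted p under 0.05. Pairs of other genes were not tested, so this count is not read as particular to the subunit genes. Gabra3 tails were longer than those of Gabra5 in 8 of 8 mice, by 20.4 nt ± 7.15 (SD, n = 8; exact p = 0.00781, the smallest this test allows, adjusted p = 0.0156). Gabra4 and Gabrb2 did not reach that level (2.94 nt ± 3.66, exact adjusted p = 0.0703), nor did Gabrb2 and Gabrd (5.37 nt ± 5.72, exact adjusted p = 0.0694). Leaving out 1 mouse left 5 to 7 pairs, and the median tail in place of the mean left 5. In these mice Gabra3 tails were longer than those of 95.6% of genes and Gabra5 tails longer than those of 24% of genes. These places did not hold in every other tail library. In TAIL-seq, Gabra3 tails were longer than those of 45.9 to 79.7% of genes (5 libraries). Gabra5 tails were longer than those of 16.4 to 66.2% (10 libraries). In the adult hippocampus the median tail was 61 nt for Gabra5 and 43 nt for Gabrb2, the reverse order.

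**Figure D5:**
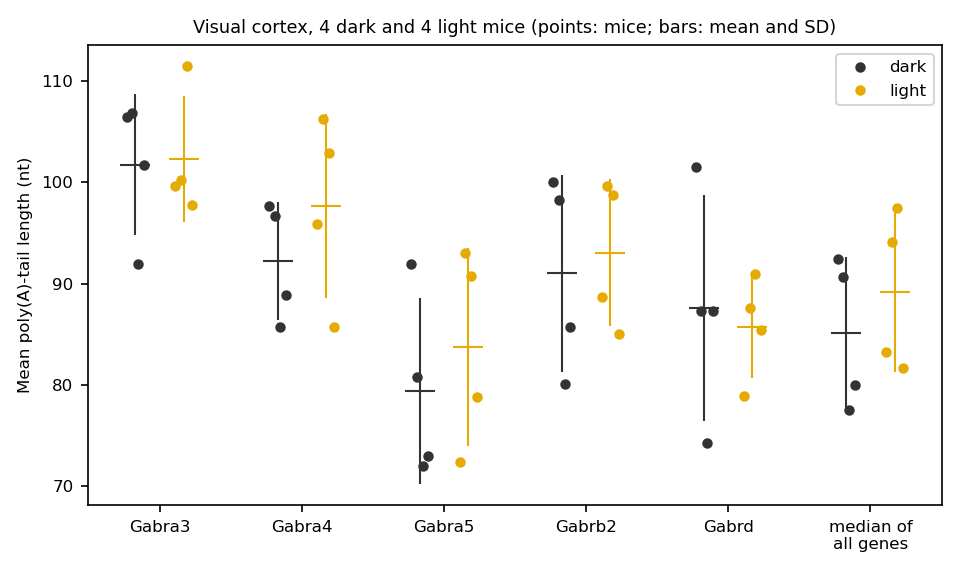
Mean poly(A)-tail length (nt) of each of 5 subunit genes and of the median gene in visual cortex, points for mice (4 dark, 4 light), lines for the mean and SD. Light and dark mice overlap in every gene, and Gabra3 at 102 nt lies above Gabra5 at 81.6 nt.

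Genes whose RNA followed a subunit gene most closely over the 12 RNA-seq libraries were found by Pearson's r of log2(RPM + 1), as a description, since the libraries share cultures and tissues. The 3 closest to Gabrb2 were Pgm2l1 (0.98), NM_027594 (0.98) and Adam22 (0.97). For Gabrd they were Fgf12 (0.97), Kcnf1 (0.96) and Glrb (0.96), and for Gabra4 Vps13a (0.97), Rims2 (0.94) and Dnajc6 (0.94). Gabra3 was closest to Slc2a13 (0.96), Tyro3 (0.94) and Sorcs3 (0.94), and Gabra5 to Eml2 (0.95), Camkv (0.95) and Spryd3 (0.94). Gabra2 was closest to Ralgapa1 (0.95), Myo9a (0.94) and Camk2g (0.93), and Gabrb1 to Cyp46a1 (0.94), Dzank1 (0.94) and Arhgap44 (0.93). Among the 7 themselves, r ran from 0.24 (Gabra2 with Gabra5) to 0.92 (Gabrb2 with Gabrd).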

How the data were processed

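Per the labels, the authors deposited read counts and RPM per RefSeq gene for RNA-seq and RPF libraries, and tag counts with mean and median tail lengths for tail libraries (1 tail column for the hippocampi, without a header, taken as medians). STAR 2.4.2, bedtools and mm10 are named in the submitters' processing notes. Deposited counts cover coding sequence less 50 nt in 98.6% of genes. The authors' deposited log2 TE values equalled those from the RPM to 0.001, save 4 of 52754. The 66 other columns of the series tables were not used.

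Groups came from the labels. The 2 RPF libraries with contradictory labels entered no comparison. Entries that name no gene (up to 19.0% of TAIL-seq tags) were dropped. The 8 visual cortex libraries were tested with edgeR 4.0.16 (quasi-likelihood, TMM, filterByExpr; DESeq2 1.42.0 as an alternative) on counts, and with limma 3.58.1 on mean tails of genes with at least 50 tags in every mouse, at adjusted p under 0.05. Single libraries were compared as ratios with 95% intervals, TE with at least 10 RPM in both, and tails with at least 50 tags in both at a 20 nt mark. A gene of a listed pathway or marker set was named if past the mark, at most the 4 largest per list, and for likeness the 3 closest of 5115 genes. All 7 subunit genes were named. Results for some other listed genes are not reported here. Scripts were tested on simulated data. Members and lists were chosen with earlier results of these data known.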

Additional observations from a re-analysis of the deposited data

How the results depend on the processing

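The light test called 128 genes in abundance, and 100 to 150 when a mouse was left out. The 10 genes called in tail length became 1 on the log2 scale, 3 when each mouse was centred and 1 to 21 when a mouse was left out, with 19 without dark mouse 1, 21 without light mouse 4, and 2 or fewer without any of dark mice 2, 3 and 4 or light mice 2 and 3. No subunit gene was called in these settings. Sample numbers do not pair the mice: deviations of same-numbered mice correlated at 0.0311, -0.196, -0.0997 and -0.0892, and with a replicate block 113 genes were called in abundance and 1 in tail length. The 8 pairs of subunit genes that differed in tail length became 5 with median tails and 5 to 7 when a mouse was left out, where 7 mice allow fewer small p-values.

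For single libraries, the subunit genes past 2-fold in the hippocampus went from 6 to 2 at 30 RPM, which tests fewer genes, and to 3 with tail tags. With footprint counts the log2 ratio turned to -0.76 for Gabra3 and -1.29 for Gabra4. Adult cortex against DIV14 went from 3 to 5 with TMM, DIV14 against DIV10 from 2 to 0 at 30 RPM and to 1 with footprints, and KCl for 10 min from 1 to 0 with footprints or tail tags. At 1 RPM, a cutoff chosen after seeing the data, TE counts went from 1 to 5 in the hippocampus. The share of all genes past 2-fold in TE there went from 22.1 to 36.3%. TE counts went from 0 to 1 for KCl at 10 and 30 min and for glu/gly, where the gene was Gabrd each time. Tail counts went from 1 to 0 for adult cortex against DIV14 when centred on the median gene. At 20 tags they went from 0 to 1 for DIV14 against DIV10 (Gabra3, 20.4 nt) and for 30 min of KCl (Gabra3, 23.8 nt). Both Gabra3 differences share the same DIV10 control, at 95.7 nt from 30 tags. Centred on the median gene, they were 13.1 and 21.3 nt, the first of which is not past 20 nt. Over all comparisons and settings, the share of all genes past the mark moved in 48 cases and stayed alike in 58. Apart from TE in the hippocampus, the counts of subunit genes given here are not set against that share. None of them is read as an excess over all genes. The share of TE ranks above the median gene went from 66.7 to 54.5% at 30 RPM. Where no construction of the alternative shows the cause, the cause was not tested. Depth limits the low values, such as the 4 RNA reads of Gabrd in the embryonic hippocampus.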

Other observations

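The labels of 2 footprint libraries from cultures transduced with a miRNA virus contradict themselves, so these libraries were put in no group. In the library with 817114 reads on genes, the footprint level was, in CPM, 88.1 for Gabra2, 95.5 for Gabra3, 28.1 for Gabra4, 80.8 for Gabra5, 137 for Gabrb1, 190.0 for Gabrb2 and 46.5 for Gabrd. In the one with 6428048 reads, the level was 85.6 for Gabra2, 185 for Gabra3, 35.2 for Gabra4, 94.0 for Gabra5, 133 for Gabrb1, 205 for Gabrb2 and 33.6 for Gabrd. Gabra3 lay farthest apart between the libraries, and Gabra4 was the lowest of the 7 in the first and Gabrd in the second.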
